A study of Drosophila melanogaster with 2 samples.

Results

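Rab proteins are small GTPases that mark and move intracellular membranes. Each one switches between a GTP-bound form, which sits on a membrane and recruits effectors such as tethers and motors, and a GDP-bound form, which is held in the cytosol by a carrier protein. Guanine nucleotide exchange factors turn a Rab on and GTPase-activating proteins turn it off. In fly embryos they are known for cellularization, epithelial polarity, tube formation in the trachea and secretion by nerve and gland cells.

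The 33 Rab GTPase genes described here are the protein-coding genes of the dm6 annotation whose symbol is Rab and a number, or RabX and a number, with at most a short letter suffix. They are part of 13945 protein-coding genes on arms 2L, 2R, 3L, 3R, 4 and X. The symbols Rab3-GEF, Rab3-GAP and Rab3GAP1, which name regulators of Rab3 and not GTPases, were left out. The rule itself reads only gene symbols, but the group was chosen by someone who knew the thresholded and pooled peaks in these gene windows. What follows is therefore a description, with no test of the group. Chromatin immunoprecipitation and sequencing (ChIP-seq) was done on whole Drosophila melanogaster embryos aged 0 to 16 h, from 1 transgenic line that stably carries salm with GFP at its C-terminal end, and GFP was the target of the antibody. Salm (Spalt major) is a zinc-finger transcription factor of the head, trachea, oenocytes and sensory organs. All embryos carried the tagged protein. They form 1 group with 2 biological replicates, so there was no other condition to compare. Each value averages over every tissue of the embryo and over all these stages. The pooled list, called on both replicates together, and each replicate list hold 30000 peaks. The thresholded list holds 3421 peaks, and these are the 3421 strongest of the pooled list. The authors cut it by the irreproducible discovery rate, which scores how well peak ranks match between lists. Which lists and threshold set the number is not given in the sources used here. Signals are the peak caller's own strength values, on a scale of their own in each list. Read totals were not used here and depth is unknown.

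Thresholded peaks of the tagged protein had summits in the windows of 12 of the 33 Rab genes (36.4%). A gene was counted if at least 1 thresholded summit fell in its window, which runs from 2 kb before the gene start to the gene end. The same count over all protein-coding genes gave 21.4%. The 12 genes were Rab1, Rab3, Rab5, Rab8, Rab9, Rab11, Rab14, Rab18, Rab23, Rab30, Rab32 and Rab39. Rab11 held 2 thresholded summits and each of the other 11 held 1, which makes 13 summits, and no summit was shared between Rab genes. The remaining 21 genes had none. In the pooled list, which also holds peaks below the threshold, 28 Rab genes (84.8%) had at least 1 summit, against 61.4% of all protein-coding genes. The Rab windows held 69 pooled summits in all, with a median of 2 and at most 7 per gene. Windows with a thresholded summit were longer. Windows of all Rab genes had a median of 4445 bp, against 4166 bp for all genes, but the 12 genes with a thresholded summit had a median of 5606 bp and the other 21 a median of 3518 bp. Of Rab genes with windows over 7 kb, 4 of 5 held a thresholded summit, where 38.5% of all genes of that size did. Between 4 and 7 kb the count was 6 of 13 Rab genes, beside 21.4% of all genes. Under 4 kb it was 2 of 15, beside 12.3% of all genes.

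The sequences under the summits are shown for 6 of the 13 peaks. These are the strongest intronic summit of Rab5, Rab9, Rab11, Rab23 and Rab14, the 5 strongest summits inside Rab genes, and the summit nearest upstream of a Rab gene, that of Rab30. Each run is the 101 bases centred on the summit, 5′ to 3′ on the strand of the Rab gene, from Release 6 of the genome, which dm6 names. Capitals mark the searched words on either strand: TATCGATA (the core of the DNA replication-related element), ATATT (an AT-rich word of vertebrate Sall proteins) and TATAAA (the TATA box). The Rab5 run is chr2L:2363722-2363822 on the minus strand, Rab9 is chr2L:19434426-19434526 on the plus strand, Rab11 is chr3R:21113208-21113308 on the plus strand, Rab23 is chr3R:5683069-5683169 on the minus strand, Rab14 is chr2L:14355738-14355838 on the plus strand and Rab30 is chr2L:7032586-7032686 on the minus strand.
Rab5: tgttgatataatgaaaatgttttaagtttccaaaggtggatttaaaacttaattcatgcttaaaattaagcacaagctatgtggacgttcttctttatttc
Rab9: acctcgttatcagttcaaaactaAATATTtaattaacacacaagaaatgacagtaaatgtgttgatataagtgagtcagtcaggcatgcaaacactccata
Rab11: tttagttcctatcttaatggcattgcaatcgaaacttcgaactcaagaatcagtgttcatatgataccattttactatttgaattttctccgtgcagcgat
Rab23: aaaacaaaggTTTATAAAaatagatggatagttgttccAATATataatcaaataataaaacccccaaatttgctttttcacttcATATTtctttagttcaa
Rab14: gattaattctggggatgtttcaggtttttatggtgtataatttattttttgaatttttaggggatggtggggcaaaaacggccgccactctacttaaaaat
Rab30: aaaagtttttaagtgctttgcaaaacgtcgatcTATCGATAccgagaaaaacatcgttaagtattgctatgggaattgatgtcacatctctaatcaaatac

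The Rab30 run carries the only TATCGATA found at the 13 thresholded Rab summits. That word was within 50 bp of 0.965% of all 3421 thresholded summits. ATATT occurred at 6 of the 13 Rab summits (46.2%), beside 52% of all thresholded summits, and in the runs above it stands in Rab9 and Rab23. TATAAA was found at 1 Rab summit, that of Rab23, beside 23.7% of all. GAGAG, the word of the GAGA factor, was at 0 of 13 Rab summits and at 9.85% of all summits, and GGTCACACT, CAGCTG and CACGTG were also at 0 of 13, beside 0.672%, 3.01% and 0.526% of all. At the 56 Rab summits of the pooled list only, TATCGATA occurred at 3, GGTCACACT at 2, GAGAG at 6 and CAGCTG at 5. CACGTG occurred at 0 of these 56, ATATT at 23 and TATAAA at 5. The shares over all pooled summits were 0.973%, 0.613%, 12.8%, 4.63%, 1.07%, 36.4% and 15.1%, in that order of words. The GC content of the 13 thresholded windows of 101 bp ranged from 21.8 to 46.5% with a median of 35.6%, beside a median of 32.7% for all thresholded summits. A word match is a match of letters and not a mapped binding site, and these words overlap each other in places, as TATAAA does with its own reverse complement in Rab23.

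The strongest summits inside Rab genes were those of Rab5, Rab9 and Rab11, which are genes of endocytosis and recycling. Of 9 such genes, 4 had a thresholded summit: Rab5, Rab9, Rab11 and Rab14. That stands beside 36.4% of Rab genes and 21.4% of all protein-coding genes. The counts were 3 of 5 for the secretory pathway and Golgi and 2 of 3 for specialized organelles and signalling. These roles were assigned with earlier results of these data known. Rab5 (FBgn0014010), which acts on early endosomes, had the strongest peak of any Rab gene (arm 2L, 2363626 to 2363884), with a signal of 519.9 in the thresholded list, rank 298 of 3421. This peak had a signal of 304.7 in replicate 1, rank 343, and of 210.5 in replicate 2, rank 253. It lay in the first intron, 1501 bp into the gene and 268 bp upstream of the start of a shorter Rab5 transcript. Rab9 (FBgn0032782), known from mammals for transport from late endosomes to the Golgi, had a signal of 374.1 (arm 2L, 19434389 to 19434584), with 229.2 in replicate 1 and 140.5 in replicate 2. The 2 replicates ranked this first-intron peak, 1902 bp from the start, at 603 and 614. In Rab11 (FBgn0015790), the Rab of recycling endosomes, both summits were in the first intron. The stronger one, 1850 bp from the start (arm 3R, 21113115 to 21113288), had a signal of 325.8, with 189.5 in replicate 1 (rank 874) and 143.1 in replicate 2 (rank 598). The weaker one, 1198 bp from the start (arm 3R, 21112411 to 21112800), had 184.1, with 136.2 in replicate 1 (rank 1590) and only 38.13 in replicate 2 (rank 6635). The replicates thus stood close on the first Rab11 summit and far apart on the second. Rab14 (FBgn0015791), which acts between endosomes, phagosomes and the Golgi, had 283.2 (arm 2L, 14355722 to 14355849), with 183 in replicate 1 (rank 946) and 95.44 in replicate 2 (rank 1240). Its summit lay 643 bp from the start in an intron of the longest transcript, over lncRNA:CR44851, which runs on the other strand.

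The starts of these 4 genes also carried weaker peaks that did not pass the threshold. The thresholded Rab5 summit itself lay 268 bp from the start of a shorter Rab5 transcript. Within 500 bp of an annotated transcription start site (TSS), the pooled list had a summit of 45.5 in Rab11, 53.77 in Rab9 and 80.16 in Rab14. At Rab5, a summit 120 bp upstream of the gene had 87.4 and lay 48 bp downstream of the start of Axud1, the neighbour on the other strand. Of the 5 endocytic genes with no thresholded summit, RabX1 had the strongest pooled summit, 123.5 at 13 bp upstream of its TSS, with rank 6895 in replicate 1 and 2543 in replicate 2. Rab7, the Rab of late endosomes and lysosomes, followed with 114.7 at 47 bp downstream of its TSS, with rank 4638 in replicate 1 and 11003 in replicate 2. Rab4, which acts in rapid recycling, had its only summit 713 bp upstream (97.17), and that summit was 35 bp downstream of the TSS of UQCR-6.4, a gene for a subunit of respiratory complex III. Rab35 had 74.23 and Rab21 had 59.63, each within 500 bp of its TSS. So 8 of the 9 endocytic genes had a pooled summit within 500 bp of their own TSS, and Rab4 was the exception. Of all Rab genes 63.6% had one, and of all protein-coding genes 49.9%.

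**Figure D1:**
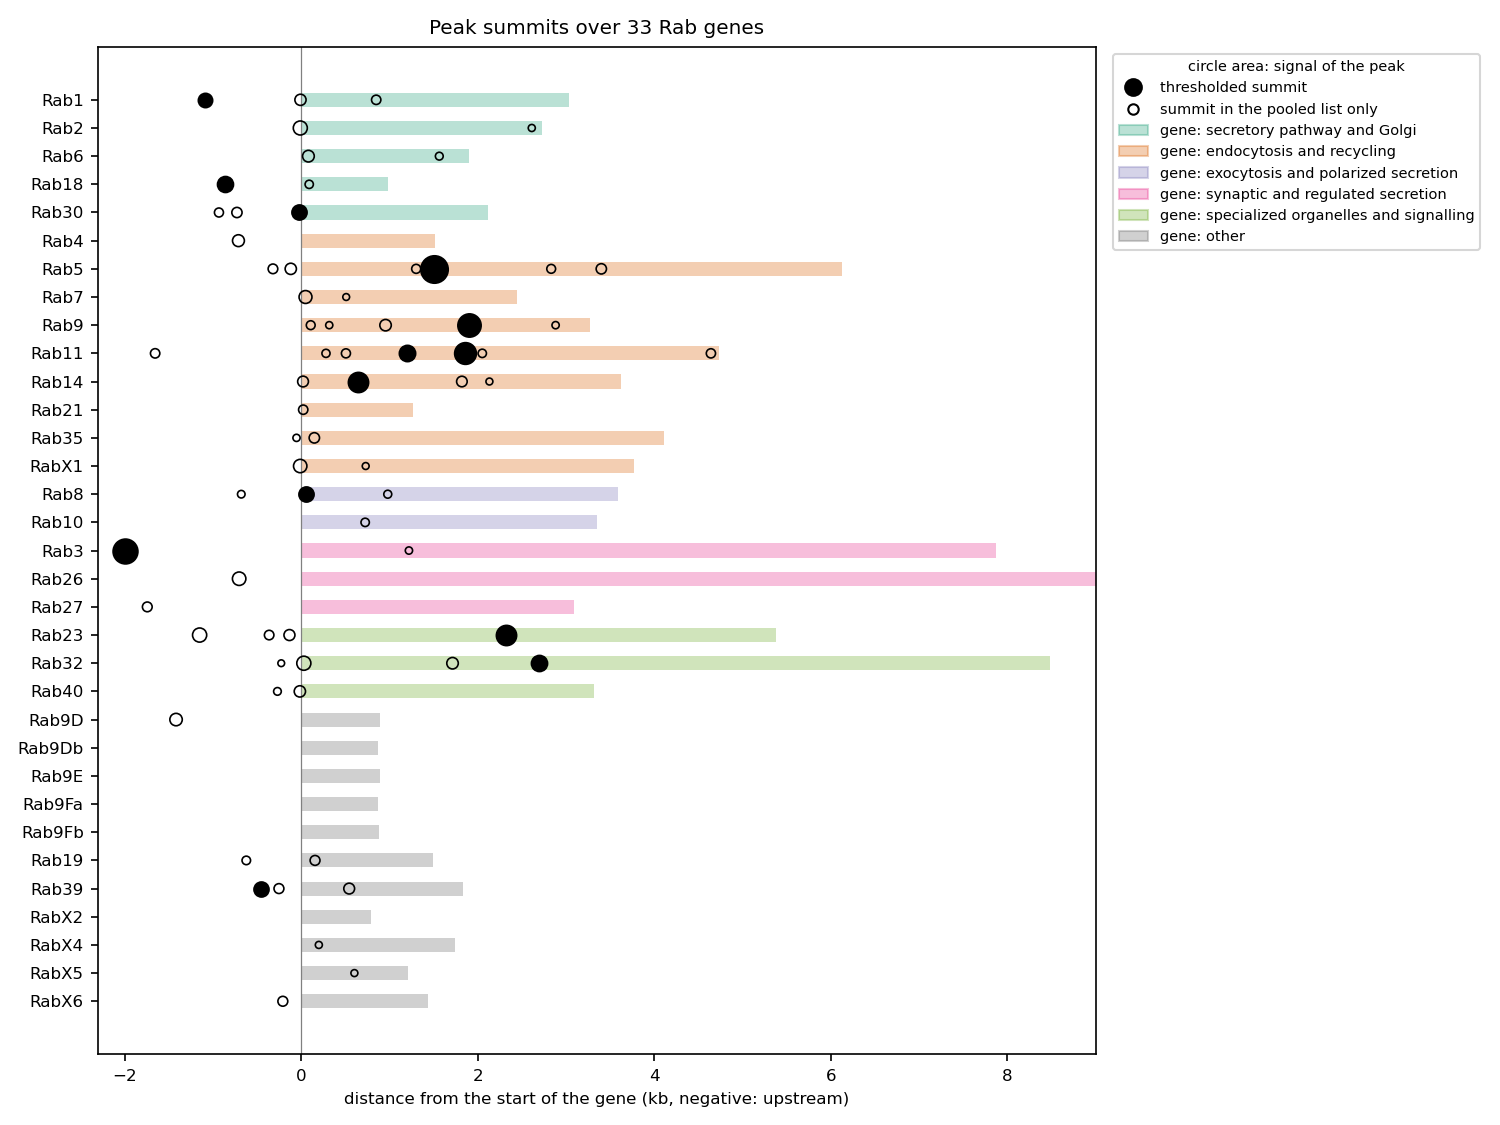
Each row is 1 Rab gene, with the bar from its start to its end and the x axis giving the distance from its start in kb (the Rab26 bar is clipped at 9 kb and holds no summit beyond). Filled circles are the 13 thresholded summits and open circles the 56 summits of the pooled list only, with circle area proportional to the signal. The large filled circles of Rab5, Rab9, Rab11, Rab14 and Rab23 lie inside the bars, and those of Rab1, Rab3, Rab18 and Rab39 lie upstream of them.

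Genes of the secretory pathway and the Golgi had thresholded summits at 3 of 5 members, with signals in the lower part of the list. Rab30 (FBgn0031882), a Golgi Rab, had its summit 30 bp upstream of its own TSS (arm 2L, 7032441 to 7032830), with a signal of 159.1, and with 97.53 in replicate 1 (rank 3063) and 73.29 in replicate 2 (rank 1997). The peak also holds the start of Caper on the other strand. Pooled summits 730 and 934 bp upstream of Rab30 lay 615 and 819 bp downstream of that TSS. Rab1 (FBgn0285937), which carries traffic from the endoplasmic reticulum to the Golgi, had the weakest thresholded summit of all Rab genes (arm 3R, 21269961 to 21270350), with 141.8, and with 92.37 in replicate 1 (rank 3417) and 53.19 in replicate 2 (rank 3633). That summit lay 1096 bp upstream of Rab1, and only 30 bp downstream of the TSS of Idi, the isopentenyl diphosphate isomerase gene on the other strand. Rab18 (FBgn0015794), known for lipid droplets and the endoplasmic reticulum, had 177.3 (arm X, 5672485 to 5672874), with 128.1 in replicate 1 (rank 1810) and 46.66 in replicate 2 (rank 4629). This summit lay 868 bp upstream of Rab18 and 54 bp upstream of a TSS of RpL35, a cytosolic ribosomal protein gene. At their own starts, Rab1 and Rab18 had pooled summits of 86.33 and 47.28. Rab2, which acts at the Golgi and in fusion with lysosomes, stayed just below the threshold with 136 at 12 bp upstream of its TSS, rank 5284 in replicate 1 and 2959 in replicate 2. Rab6, a Golgi Rab of retrograde transport, had 93.99 at 80 bp downstream of its TSS. All 5 secretory genes thus had a pooled summit within 500 bp of their own TSS, beside 63.6% of Rab genes and 49.9% of all protein-coding genes. Rab30 alone had one above the threshold there, beside 13.5% of all protein-coding genes.

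Among the genes of exocytosis and polarized secretion, Rab8 (FBgn0262518), which brings vesicles to the plasma membrane, had its summit in the 5′ untranslated region 51 bp downstream of its TSS (arm 3L, 19870832 to 19871221). The signal was 159.2, with 116.1 in replicate 1 (rank 2186) and 50.82 in replicate 2 (rank 3941). In replicate 2 the summit of this peak lay 45 bp upstream of Rab8. The peak also holds the start of Usp32 on the other strand. A pooled summit 681 bp upstream of Rab8 lay 620 bp downstream of that TSS. Rab10, which guides basement membrane secretion in fly follicle cells, had 1 weak pooled summit of 48.26 in its first intron and none near its TSS. The 3 genes of synaptic and regulated secretion had no summit of either list within 500 bp of a TSS of their own. Over all protein-coding genes 49.9% had a pooled summit there, so 3 genes can hold none, and no lack was tested. Rab3 (FBgn0005586), the synaptic vesicle Rab, was counted through a summit of 426.3 (arm 2R, 10731102 to 10731302), with 261.4 in replicate 1 (rank 466) and 161.8 in replicate 2 (rank 451). That summit lay 1996 bp upstream of Rab3, at the very edge of the window, and 136 bp upstream of the TSS of CG7220. In replicate 2 the summit of the same peak lay 2013 bp upstream, just outside the window, although the peak ranked as high there. Rab26, known from mammals for secretory granules, had its only pooled summit 705 bp upstream (124.9, rank 7126 in replicate 1 and 3139 in replicate 2), 49 bp upstream of the TSS of Pc, which encodes Polycomb. Rab26 also has the longest window of the 33, with 18254 bp, and no pooled summit inside the gene. Rab27, a Rab of secretory vesicles, had 65.46 at 1746 bp upstream, 119 bp downstream of the TSS of rush. The peaks in the windows of these 3 genes were therefore nearest to other genes, apart from 1 weak summit of 36.58 in the first intron of Rab3.

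Of the 3 genes of specialized organelles and signalling, Rab23 and Rab32 had a thresholded summit. Rab23 (FBgn0037364), which acts in planar cell polarity in flies and in Hedgehog signalling in mice, had 283.5 in its first intron, 2315 bp from the start (arm 3R, 5682924 to 5683313), with 172.3 in replicate 1 (rank 1063) and 107.4 in replicate 2 (rank 1002). A second peak of Rab23, 1153 bp upstream, was the strongest Rab summit outside the threshold, with 138.2. Its ranks differed widely, at 2027 in replicate 1 and 19224 in replicate 2. It lay 732 bp downstream of the TSS of the neighbouring gene plx, which encodes a protein with a TBC domain, the catalytic domain of Rab GTPase-activating proteins. Rab32 (FBgn0002567), needed for eye pigment granules, had 180.5 (arm 2R, 9183458 to 9183847), with 119.3 in replicate 1 (rank 2074) and 52.44 in replicate 2 (rank 3724). Its summit lay 2689 bp into the gene in an intron of the longer transcripts, 258 bp downstream of the TSS of lncRNA:CR44284 on the other strand. At its own start Rab32 had a pooled summit of 137.1, just outside the threshold, 28 bp downstream of the TSS. Rab40, whose relatives in vertebrates belong to ubiquitin ligases, had 88.05 at 17 bp upstream of its TSS and none above the threshold.

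The other 11 genes included a single thresholded summit. Rab39 (FBgn0029959) had 156.6 (arm X, 7734272 to 7734661), with 88.47 in replicate 1 (rank 3701) and 62.5 in replicate 2 (rank 2720). This summit lay 456 bp upstream of Rab39 and 29 bp upstream of the TSS of Pdp, a pyruvate dehydrogenase phosphatase gene on the other strand. Rab19 and RabX6 each had a strongest pooled summit of 67.32, RabX4 had 34.2 and RabX5 had 33.47. The window of RabX4 also held a stronger peak in each replicate list that lay in no pooled peak, 1720 bp upstream in replicate 1 (signal 89.52, rank 3612) and 1758 bp upstream in replicate 2 (signal 39.75, rank 6202). Over all Rab windows, 15 of 76 summits of replicate 1 and 23 of 81 of replicate 2 lay in no pooled peak, beside 17.2% and 28.4% of all summits of these lists, and the pair at RabX4 ranked highest among them. RabX5 also stands closest to a thresholded summit outside its window, 192 bp beyond the end of the gene. Rab9D had 106.5 at 1420 bp upstream of its TSS, with ranks 7314 and 7168. The 5 Rab genes with no pooled summit at all were Rab9Db, Rab9E, Rab9Fa, Rab9Fb and RabX2, all short genes on the X chromosome, and neither replicate list had a summit in their windows. Part of the sequence in these windows recurs elsewhere in the genome. Of the 31-base words in the window, 66.1% were found once in the assembly for Rab9Db, 62.5% for Rab9E, 61.8% for Rab9Fa, 97.8% for Rab9Fb and 87.7% for RabX2. Rab9D had 71.1%, and each of the other 27 Rab genes had at least 99.3%. Reads from repeated sequence are hard to place, and the part of this in the missing peaks was not tested. Of 13 Rab genes on the X chromosome, 2 had a thresholded summit, beside 4 of 5 on 2L, 3 of 5 on 3R, 2 of 5 on 2R and 1 of 5 on 3L. Over all genes the share was between 20.5 and 22.4% on each of these arms. These counts by arm were not matched for window length. The 5 X genes with no pooled summit all had windows under 4 kb, where 12.3% of all genes held a thresholded summit.

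**Figure D2:**
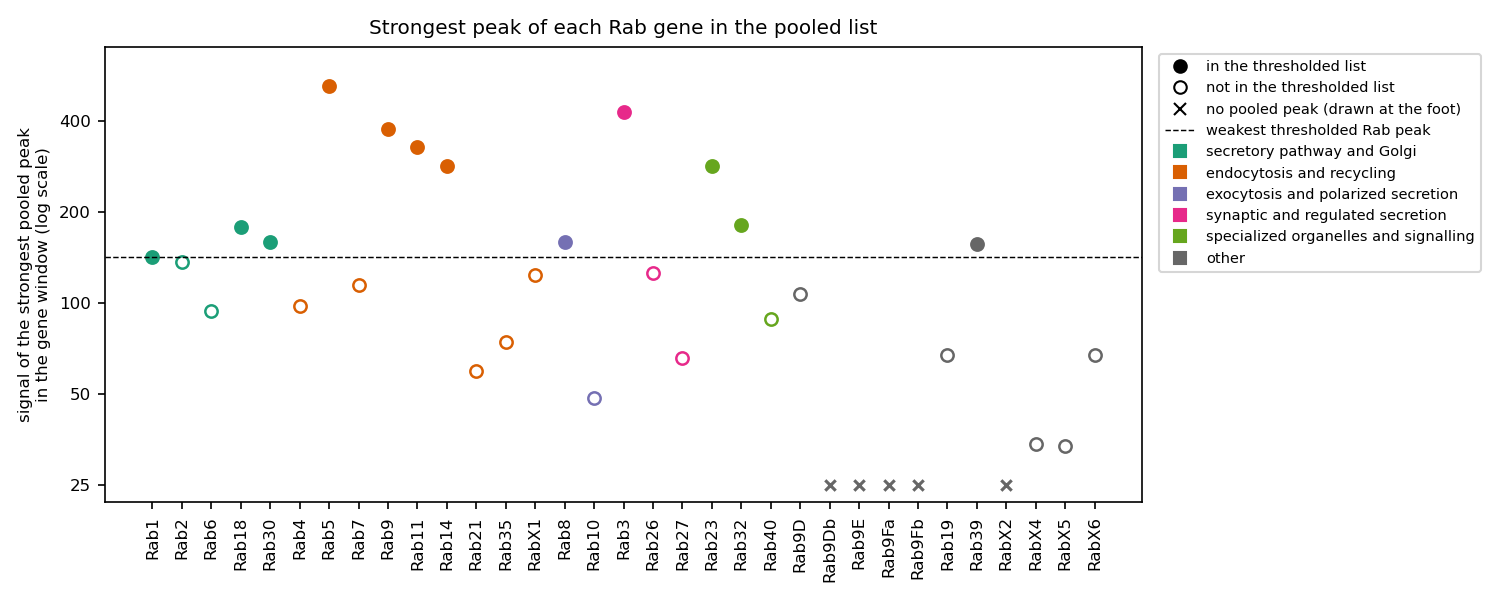
For each Rab gene the y axis gives the signal of the strongest pooled peak in its window, on a log scale, with colours for the groups of genes. Filled points are in the thresholded list and open points are not, and crosses at the foot mark the 5 genes with no pooled peak. Rab5 reaches 519.9, and Rab2 at 136 and Rab26 at 124.9 sit just under the dashed line at 141.8, the weakest thresholded Rab peak.

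The 13 thresholded Rab summits fell into 2 kinds by position. Inside a Rab gene there were 8, of which 7 were in introns of 6 genes with signals from 180.5 to 519.9 (median 283.5), and 1 was the exonic summit of Rab8. Upstream there were 5, in Rab1, Rab3, Rab18, Rab30 and Rab39, with signals from 141.8 to 426.3 and a median of 159.1. In 4 of these 5, all but Rab30, the nearest TSS was that of a neighbouring gene, as it also was in Rab32. The peaks of Rab30 and Rab8 also held the start of a neighbour on the other strand, Caper and Usp32. Summits within 500 bp of an own TSS numbered 4 (Rab5, Rab8, Rab30 and Rab39), so that 12.1% of Rab genes had one, beside 13.5% of all protein-coding genes. Over all pairs of a protein-coding gene and a thresholded summit in its window, 43.6% were in an intron of the gene and 46.5% within 500 bp of its TSS. For the Rab genes these shares were 53.8% and 30.8% of 13 pairs. The nearest TSS was the gene's own in 61.5% of Rab pairs and in 61.4% of all pairs. The median signal was 184.1 for the 13 Rab summits, beside 205.6 for all 3421 thresholded peaks, and 6 of the 13 were above that overall median.

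Below the threshold, a larger share of Rab summits lay at the gene's own start. A pooled summit of any strength lay within 500 bp of an own TSS in 21 Rab genes (63.6%), beside 49.9% of all protein-coding genes. Of the 56 Rab summits in the pooled list only, 35 (62.5%) lay within 500 bp of some TSS and 16 (28.6%) in introns farther away, where the shares over all 26579 such peaks of the genome were 29.4% and 45.7%. Counted the same way, 61.5% of the 13 thresholded Rab summits were near some TSS and 38.5% in introns farther away. Over all thresholded peaks these shares were 46.9% and 38.4%. Over pairs of a gene and a summit of the pooled list only in its window, 55.4% of the Rab pairs were within 500 bp of the gene's own TSS, beside 29.9% of the pairs of all protein-coding genes. These contrasts were not matched for window length. Each Rab window holds a TSS, whereas 18.3% of the 26579 peaks were intergenic, and long genes can give many pairs. The part of this in the differences was not tested. The median signal of these 56 summits was 60.36, beside 51.06 for all 26579. Of the 8 Rab genes whose thresholded summit lay away from their own TSS, 7 had a pooled summit at their TSS, with strongest signals from 45.5 in Rab11 to 137.1 in Rab32, and Rab3 had none. Among the 16 genes with pooled summits only, the strongest one was at the own TSS in 10, with signals from 34.2 to 136, and away from it in Rab4, Rab9D, Rab10, Rab26, Rab27 and RabX5.

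The replicates matched closely on the strong Rab summits and less on the weak ones. Each of the 13 thresholded summits fell within a peak of replicate 1 and a peak of replicate 2. The 6 strongest, in Rab5, Rab3, Rab9, Rab11, Rab23 and Rab14, ranked between 343 and 1063 in replicate 1 and between 253 and 1240 in replicate 2. The other 7 ranked between 1590 and 3701 in replicate 1 and between 1997 and 6635 in replicate 2. Among the 3421 strongest peaks of each replicate, 7 of the 13 (53.8%) were in both, 5 in replicate 1 only and 1 in replicate 2 only, while 72.6% of all thresholded summits were in both. Over the 13 summits the replicate signals had a Spearman correlation of 0.703, beside 0.711 over 3379 thresholded summits of the genome that lay in a peak of each replicate. These are correlations over peaks taken for their strength in the same libraries, and peaks are not independent replicates. Of the 56 pooled summits below the threshold, 39 lay in a peak of both replicates, 16 in a peak of 1 replicate and 1, in RabX5, in neither. The same shares over all 26579 such peaks of the genome were not counted. Neighbouring pooled summits in Rab9, Rab30, Rab35, Rab39 and Rab40 shared a replicate peak, so these counts include shared peaks. Peak overlap can make a weak summit look strong here: the open summit of Rab11 that lay 2050 bp from the start had a pooled signal of 48.08, but fell inside the replicate 2 peak of rank 598 that belongs to its neighbour. Of the 13 thresholded Rab peaks 8 were 390 bp wide with the summit in the middle, as 60.8% of all thresholded peaks had that width, so that these summits locate binding only coarsely. The peaks of Rab3, Rab5, Rab9, Rab14 and the stronger one of Rab11 were narrower, at 128 to 259 bp.

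**Figure D3:**
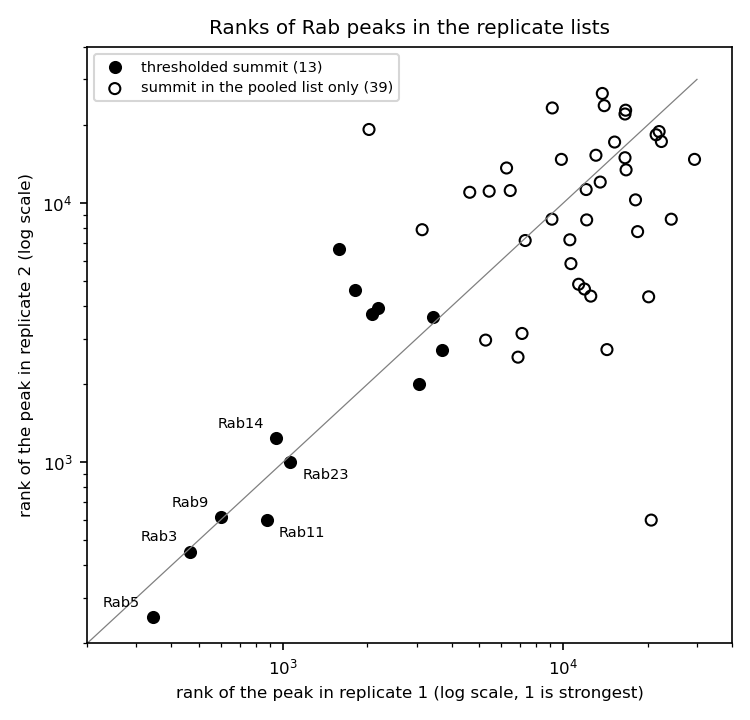
Each point is a Rab summit placed by the rank of the peak that holds it in replicate 1 (x axis) and replicate 2 (y axis), both on log scales with 1 as the strongest, and the line marks equal ranks. The 13 filled points are thresholded summits and the 39 open points are summits of the pooled list only that lay in a peak of both replicates. The strongest 6, labelled by gene, lie near the line, while the open point at rank 598 in replicate 2 is the weak Rab11 summit inside a stronger peak.

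Other genes of Rab function were counted in the same way, to be read beside the 21.4% of all protein-coding genes. Regulators of Rabs had a thresholded summit at 9 of 27 genes (33.3%), among them 3 of 10 exchange factors, 5 of 12 GTPase-activating proteins and 1 of 5 genes of carriers and prenylation. The strongest were in spri, a Rab5 exchange factor (398, 445 bp upstream of its TSS), sky, a TBC protein that acts on Rab35 at synapses (355.9, in the gene 706 bp downstream of a TSS), TBC1d7 (301.5, at the TSS of Myo95E) and Evi5, which acts on Rab11 (295.3). Rab3-GEF and Crag had none. Rab3GAP1, which had a thresholded summit, was counted neither in this list nor among the 33 Rab genes. Mon1 and Ccz1, named after their values were seen, form the exchange factor of Rab7 and both had a summit at their own start, with 289.2 at 78 bp upstream in Mon1 and 195.6 at 33 bp downstream in Ccz1, while Rab7 itself had none above the threshold. Effectors and tethers had 10 of 43 (23.3%), led by the Rab5 effector Rbsn-5 (373.1), the Rab11 effector Rip11 (343.5), Golgin97 (276.9, nearest to the TSS of cnn) and the exocyst gene Sec6 (227.7), with none at btsz or Rim. By role, the counts were 3 of 6 for the early endosome, 5 of 11 for recycling and the exocyst, and 2 of 10 for Golgi and motor genes. None of 7 listed genes of the HOPS tether and its adaptor had a thresholded summit, nor did any of 3 retromer genes. The 3 synaptic and secretory genes and the 3 genes of a kinase and adaptors had none either. At a share of 21.4% over all genes, lists this short can hold none, and no lack was tested.

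Another family of small GTPases and the vacuolar proton pump were counted as well. Of Arf and Arl genes 3 of 12 had a thresholded summit (25%), Arl1 (548.1, nearest to the TSS of brm), Arl6 (352.8, nearest to RpL11) and Arl5 (166.2, at its own TSS), and Sar1 and Arf1 had none. Vacuolar ATPase genes, which encode the proton pump of endosomes and lysosomes, had 5 of 22 (22.7%), led by Vha100-2 (406.4, nearest to the TSS of Vti1b), Vha100-5 (226.3), Vha16-1 (192.2) and Vha16-5 (164.3, nearest to CG12299), with none at Vha44 or Vha100-1. No difference between these lists was tested.

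**Figure D4:**
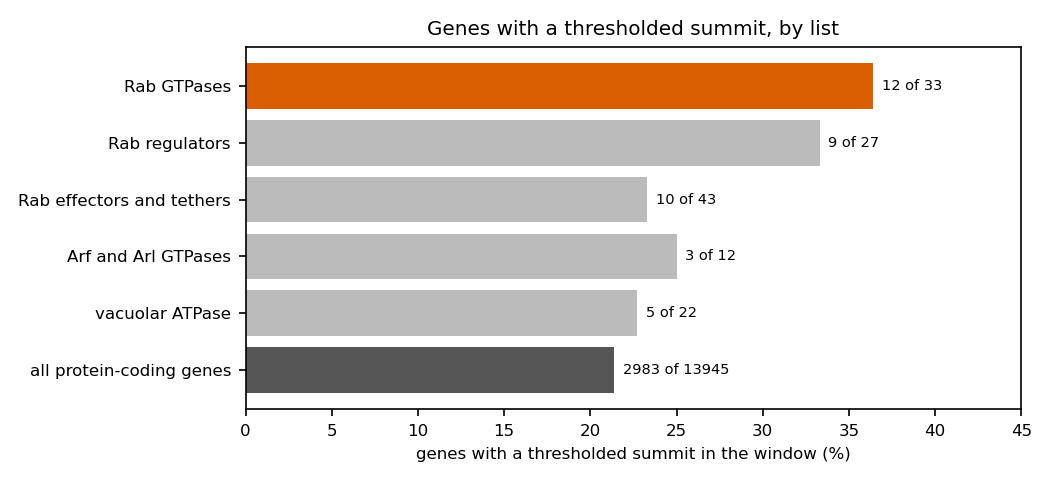
Bars give the percentage of genes with a thresholded summit from 2 kb upstream to the gene end, for the Rab genes (top), 4 related lists and all protein-coding genes (bottom), with the counts beside them. The Rab bar stands at 36.4%, the related lists run from 22.7 to 33.3%, and all genes stand at 21.4%.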

How the data were processed

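Chromatin from 2 biological replicates of salm-GFP embryos was sonicated to 200 to 800 bp, per the labels, and precipitated through GFP. Per the file descriptions, the authors called narrow peaks on dm6 in each replicate and in the pooled replicates, against a control, and deposited a list cut by the irreproducible discovery rate. Which aligner, caller and threshold were used is not given in the sources used here. Per the file format, the authors deposited for each peak a signal value, a −log10 q-value, which was not used because it has a ceiling in each list, and a summit offset.

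Summits were placed from the offsets and matched to Ensembl 115 genes of genome Release 6. A gene counted when a summit lay from 2 kb upstream to its end, so 1 summit can count for several genes. Start sites used a window of 500 bp around every annotated transcript start. Sequences were read from the RefSeq copy of Release 6, and repeats were counted as 31-base words on both strands. Runs on arm 2R and runs with more than 30 bases of an untranslated region are not shown. Counting was tested on simulated peaks. The members, roles, lists and rules were chosen with earlier results of these data known. The naming rule took every Rab gene with a thresholded summit, the 8 strongest and 4 longest of the others, and from each related list up to 4 genes with and up to 2 without a summit. Other Rab genes were added so that each one is accounted for. Of the related symbols, 4 were matched through RefSeq synonyms and 3 had no match. A further related list is not reported here. With 1 group there was no comparison between conditions and no test. Alternatives covered the peak list, the window, the summit position, the overlap, the assignment, the members and each replicate alone. Python 3.11.15, pandas 2.3.3, numpy 2.4.6, scipy 1.17.1 and matplotlib 3.10.9 were used.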

Additional observations from a re-analysis of the deposited data

How the results depend on the processing

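By construction, fewer peaks or a shorter window gave lower counts than the 12 Rab genes reported. With only the 1710 strongest thresholded peaks, 6 Rab genes with 6 summits remained, beside 12.5% of all protein-coding genes. With no upstream bases, 7 Rab genes with 8 summits were counted, beside 10.2% of all genes. Within 500 bp of an own TSS, 4 Rab genes with 4 summits were counted, beside 13.5%. The share of all genes moved to 19.1% with 1 kb upstream, where 10 Rab genes were counted, and to 28.2% with 5 kb, where 13 were. It moved to 22.2% when any overlap of the peak counted (12 Rab genes), and to 14.2% when each summit went to the protein-coding gene with the nearest TSS (8 Rab genes, Rab32 among them because starts of non-coding genes were left out here). Of the 4 summits within 500 bp of an own TSS, 2 lay within 250 bp. The middle of the peak in place of the summit gave the same 12 genes. Counting the 3 regulator symbols gave 13. The strongest peaks of 1 replicate alone, as many as the thresholded list holds, gave 10 to 11 Rab genes, 11 to 14 summits and a share of all genes of 21.2 to 21.3%, and the full replicate lists gave 26 to 27 Rab genes. Without replicate 1, Rab1, Rab3, Rab8, Rab18 and Rab32 lost their summit and Rab2, Rab26 and RabX1 gained one. Without replicate 2, Rab39 lost its summit. Of 10 alternatives, Rab5 kept a summit in all 10, Rab9, Rab11, Rab14 and Rab23 in 9, and Rab1 in 4. The 5 kb window and the overlap rule could not remove a summit, so part of each tally was fixed in advance. No paired analysis was possible because there was 1 group. Read totals were not used here, so what depth limits is unknown.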
